A study of Mus musculus with 11 samples.

Results

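The cornified envelope genes of mouse skin were the loricrin, involucrin, filaggrin-type, small proline-rich and late cornified envelope genes. They were taken by symbol from the deposited table: every Lce gene with a number after its prefix, every Sprr gene, and Lor, Ivl, Flg, Flg2, Hrnr, Rptn, Crnn, Tchh and Tchhl1. This gave 47 of 49315 genes, namely 14 Lce1, 6 Lce3 and 1 Lce6 gene, 13 Sprr2, 2 Sprr1, Sprr3 and Sprr4, Lor, Ivl and 7 genes of the S100-fused type. Bulk RNA sequencing was done on whole skin, from 4 mm biopsies, of 11 neonatal Foxp3-DTR mice on a C57BL/6J background, in which the Foxp3 promoter drives the diphtheria toxin (DT) receptor in regulatory T cells (Tregs). The study asked what loss of Tregs in early or later neonatal life changes in skin. All groups carried the receptor. Treg-sufficient controls (n = 2) received PBS. ΔETreg mice (n = 3) received DT on postnatal day 6 (P6) and P8, with harvest on P9, ΔLTreg mice (n = 3) on P10 and P12, with harvest on P13, and ΔTreg mice (n = 3) on P6, P8, P10 and P12, with harvest on P13, each time at 30 ng per g. The study describes its compared groups as age-matched, but the labels of the 2 control libraries carry no harvest day, and the same 2 mice stand in every comparison with control, so how far age differed there could not be checked. ΔTreg and ΔLTreg mice, called the P13 groups here, were of the same age.

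The cornified envelope is the protein shell that replaces the plasma membrane of a keratinocyte as it dies and becomes part of the stratum corneum, the outer barrier of skin. Transglutaminases crosslink involucrin early beneath the membrane, then loricrin, the main protein of the finished envelope, together with small proline-rich (SPRR) proteins, which act as flexible bridges, and late cornified envelope (LCE) proteins, which are added last. S100-fused proteins, named for the calcium-binding domain at their start, include profilaggrin, which is cut into filaggrin and bundles keratin, hornerin, filaggrin-2, repetin and cornulin, whereas trichohyalin serves mainly in the inner root sheath of the hair follicle. The genes lie side by side in the epidermal differentiation complex. Their expression is known to follow the last steps of keratinocyte differentiation, and some SPRR2 genes are known for their induction by injury, infection or inflammation.

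All 47 genes lay in 1391710 bases of chromosome 3 of GRCm38 (chr3:92080271-93471980). Between 23377571 and 34159435 reads were counted on genes in each library, and 1.73% to 3.92% of them fell on the 47 genes. Most of these belonged to 1 gene, Tchh. After edgeR's filter on low counts, 18375 genes were tested, among them 38 of the 47. The other 9, Sprr2b, Sprr2c-ps, Sprr2i, Sprr2j-ps, Sprr2k, Sprr3, Lce3b, Lce3e and Lce3f, had 0 to 36 counts over all 11 libraries together and at most 12 in a library. Sprr2c-ps, a pseudogene, had no count in any library. The filter was passed by Sprr2a1, Sprr2a2, Sprr2d, Sprr2e, Sprr2f and Sprr2g only through the ΔTreg libraries, so these 6 genes had to be higher there, and their number is no result. Counts of Foxp3 itself were 20 and 14 in the control libraries. They were 10, 16 and 11 after the early regimen, 23, 13 and 13 after the late one and 9, 19 and 18 after all doses. These counts were low, overlapped between all groups and do not show the loss of Tregs. The study reports that loss from flow cytometry of skin, a day after the early and the late regimen. Group names are the study's, matched to the treatment labels. Levels are given as CPM, read counts corrected for depth, on library sizes scaled by the TMM method, and differences as log2 fold changes with their standard errors (SE) from edgeR's quasi-likelihood test. A gene was called at an adjusted p under 0.05, with Benjamini-Hochberg adjustment over all 18375 genes. Nothing in the labels links samples of a group to separate litters, and replicates differed by more than counting error, so p-values measure only the spread between these samples. In whole skin, fewer cornifying cells and less RNA per cell cannot be told apart.

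Per kb of exon, the 38 genes that were tested differed widely in control skin. Tchh was highest, with a mean of 3538 CPM per kb, followed by Lor with 2004, Sprr1a with 1579 and Sprr4 with 762 CPM per kb. The value of Sprr4 rests on only 231 bases of annotated exon, and in plain CPM it had 182 and 169.7 in control, below Ivl at 218. Lce1m, at 243 CPM per kb, was the highest LCE gene, and involucrin (Ivl) stood at 114 CPM per kb. These genes code for structural proteins of the envelope and, for Tchh, of the hair follicle. Flg had 16.3, Flg2 10.5 and Hrnr 6.18 CPM per kb, low values for genes whose single long exon codes for repeats. At the bottom were the inducible Sprr2 genes, with 0.210 CPM per kb for Sprr2a3 and 0.0550 CPM per kb for Sprr2d. In ΔTreg skin Sprr2a3 reached 14.6 CPM per kb, above Flg at 3.27 CPM per kb, an order that uncounted repeat reads of Flg may affect.

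**Figure D1:**
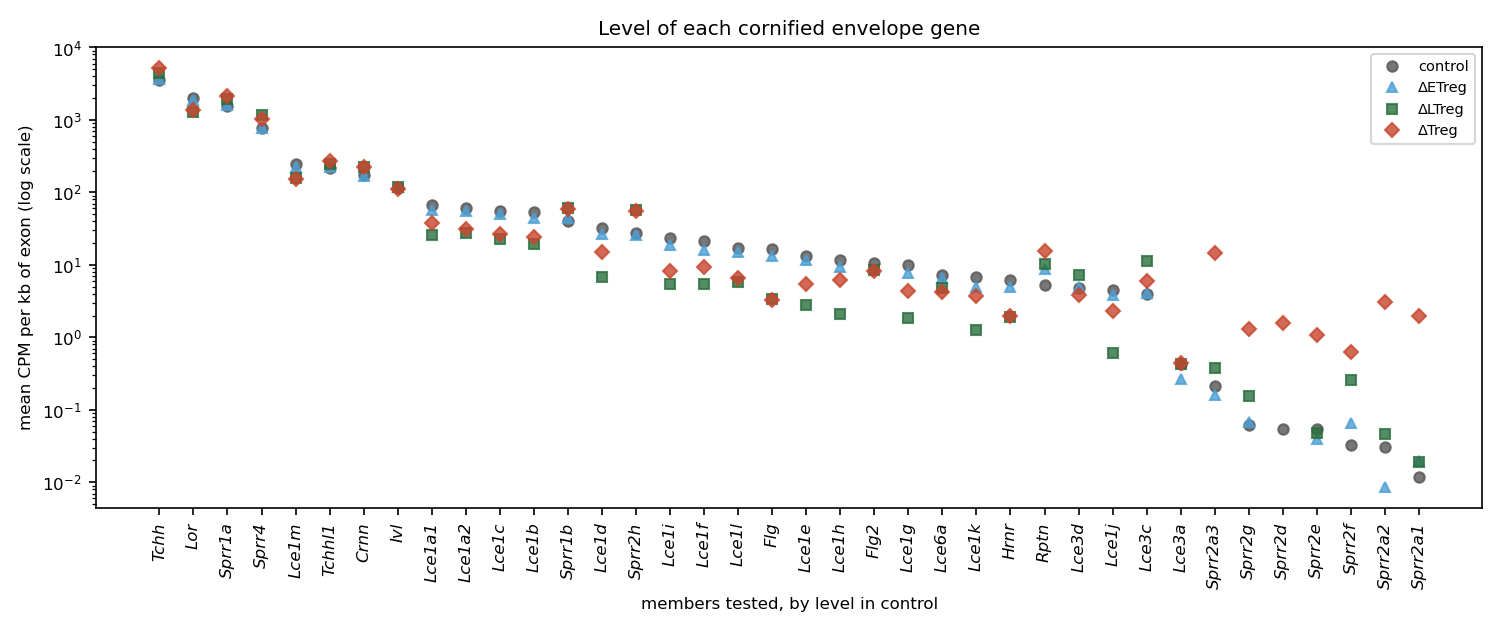
Mean level of each tested cornified envelope gene in the 4 groups, in CPM per kb of exon on a log axis, ordered from left to right by the level in control. The Sprr2 genes at the right reach 14.6 CPM per kb in ΔTreg skin for Sprr2a3 against 0.210 in control, and Sprr2d, at 0 counts in ΔETreg and ΔLTreg skin, has no point there.

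Against control, none of the 38 genes was called in ΔETreg skin, where edgeR called 0.00544% of all genes tested (1 gene, which was higher). In ΔLTreg skin 3 were called higher and 16 lower, against a background of 4.55% of all genes (1.86% higher and 2.69% lower). In ΔTreg skin 12 were called higher and 17 lower, against a background of 21.5% (12.1% higher and 9.39% lower), and 6 of the 12 were the Sprr2 genes that the filter kept through ΔTreg libraries alone. Between ΔTreg and ΔLTreg skin, both taken on P13, 16 genes were called higher in ΔTreg skin and none lower, against a background of 16.8% (10.7% higher and 6.11% lower), and 5 of the 16 were Sprr2 genes of that kind. ΔLTreg exceeded ΔETreg skin for 2 genes and fell below it for 16, against a background of 6.38% (3.12% and 3.27%), and in this comparison regimen and age cannot be told apart. The median log2 fold change of the 38 genes against control was -0.17 for ΔETreg, -0.44 for ΔLTreg and -0.33 for ΔTreg skin, while the medians of all genes tested were -0.01, 0.00 and -0.01. In ΔTreg against control skin, the called genes formed blocks along the chromosome: Sprr2a3, Sprr2h, Sprr1a, Sprr1b and Sprr4 near one end were higher, as the 6 Sprr2 genes named above had to be, all 14 Lce1 genes lower, and of the S100-fused genes at the other end Rptn was higher and Flg and Hrnr lower. Skin composition moved with the groups as well. The summed level of 7 skeletal muscle genes was 1230.4 to 2116 CPM in control and ΔETreg, 1866 to 6957 CPM in ΔLTreg and 1828 to 3569 CPM in ΔTreg skin. That of 6 fibroblast genes was 13581 to 24172 CPM in control and ΔETreg, 8358 to 18287 CPM in ΔLTreg and 9843 to 11153 CPM in ΔTreg skin. Their part in the results was not tested.

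**Figure D2:**
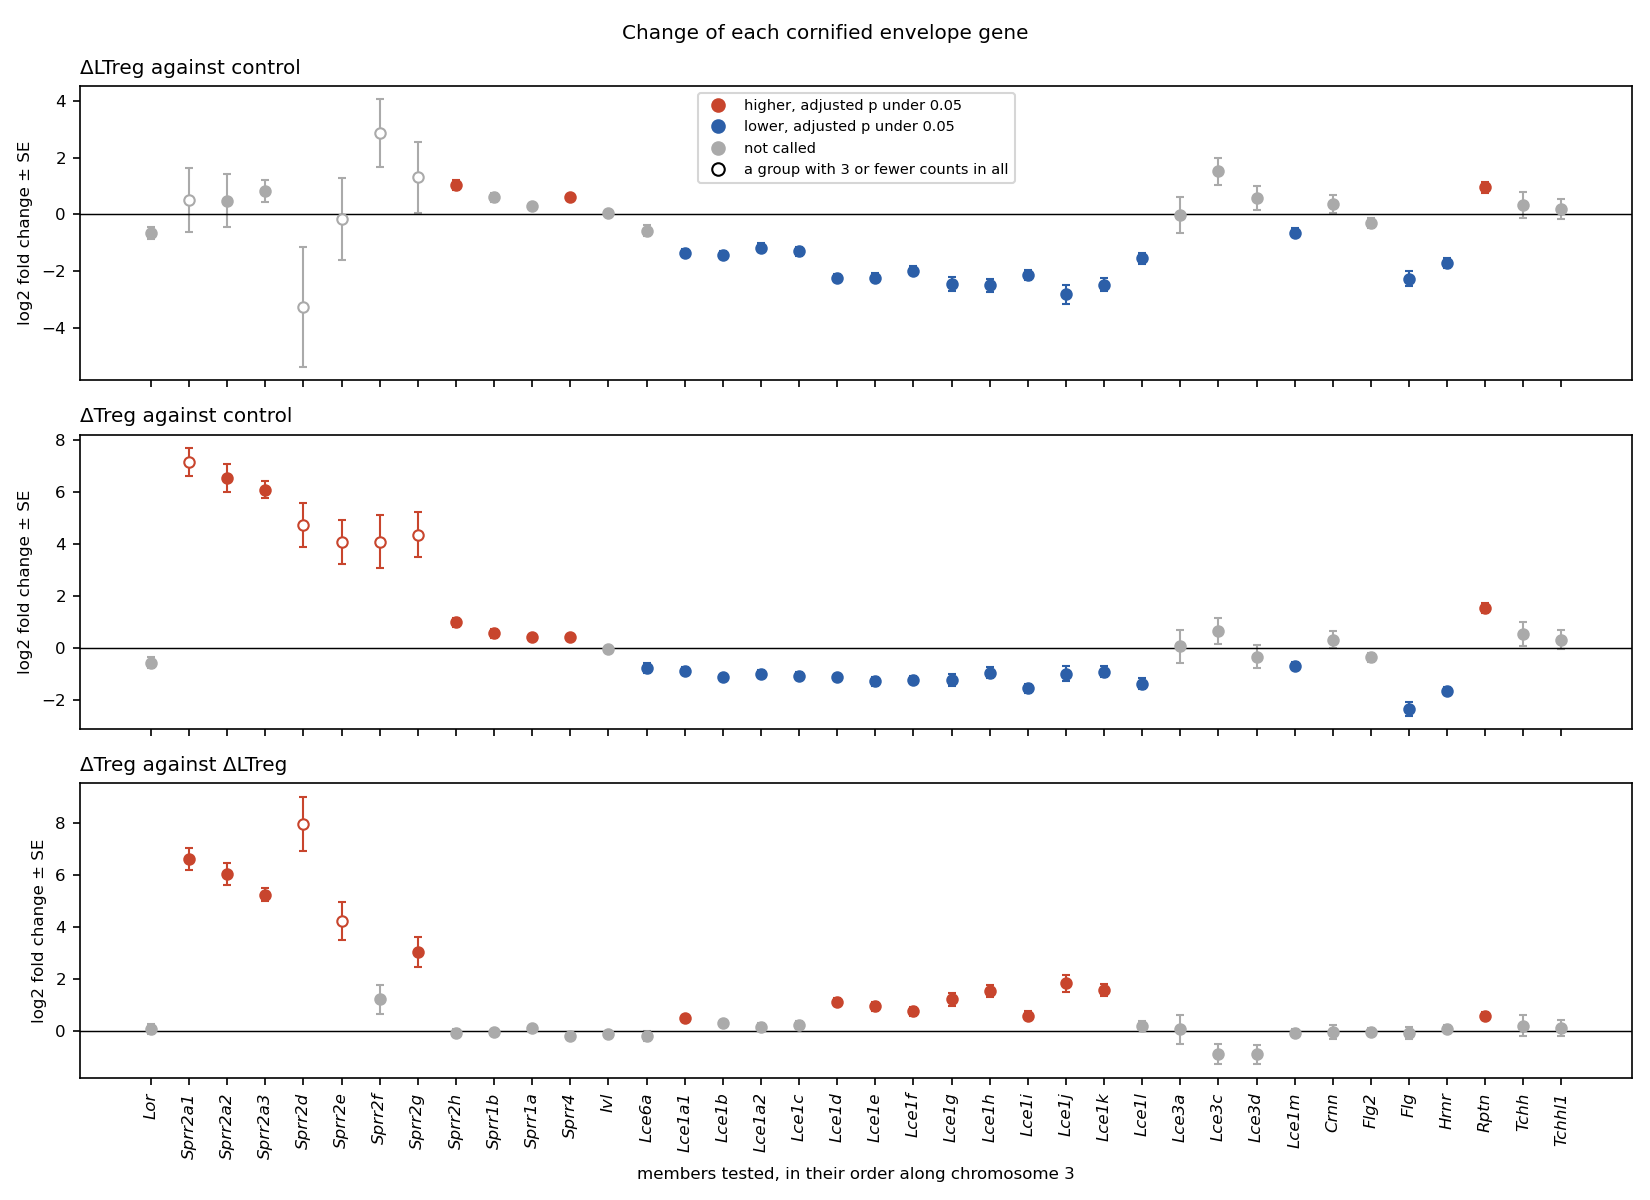
Log2 fold change ± SE of the 38 tested genes, in their order along chromosome 3, for ΔLTreg against control (top), ΔTreg against control (middle) and ΔTreg against ΔLTreg skin (bottom), with called genes in red (higher) or blue (lower) and open points where a group had 3 or fewer counts in all. The 14 Lce1 genes lie below 0 in the upper panels, and from Lce1d to Lce1k they are red in the lowest panel.

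Filaggrin and hornerin, which bundle keratin and line the envelope, were lower in ΔLTreg and in ΔTreg skin. Flg (chr3:93273523-93293686) had 375 and 239.8 CPM in the 2 control mice, 161, 326 and 264 CPM in ΔETreg, 51.2, 73.2 and 68.2 CPM in ΔLTreg and 59.044, 66.7 and 59.1 CPM in ΔTreg mice. Each mouse of the P13 groups lay below every control and every ΔETreg mouse. Flg fell by 4.79-fold in ΔLTreg skin (log2 fold change -2.26, SE 0.26, adjusted p = 0.00141) and by 4.99-fold in ΔTreg skin (log2 fold change -2.32, SE 0.26, adjusted p = 0.00014), and it was lower in ΔLTreg than in ΔETreg skin (log2 fold change -1.97, SE 0.24, adjusted p = 0.00154). Between ΔTreg and ΔLTreg skin the Flg difference was -0.058 (SE 0.24, adjusted p = 0.903). Hrnr (chr3:93319749-93333570) followed with 76.8 and 61.5 CPM in control, 43.4, 59.5 and 60.9 CPM in ΔETreg, 17.6, 22.2 and 23.8 CPM in ΔLTreg and 24.998, 21.5 and 20.7 CPM in ΔTreg mice. Again the P13 groups did not overlap with the others. The Hrnr log2 fold change was -1.71 (SE 0.16, adjusted p = 0.000705) in ΔLTreg and -1.63 (SE 0.16, adjusted p = 6.13e-05) in ΔTreg skin, and 0.076 (SE 0.15, adjusted p = 0.783) between the P13 groups.

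Filaggrin-2 and loricrin were not called among the genes that passed the filter, and were called lower when no filter was used. Over all genes, the fit with no filter called 1790 of 35745 in ΔLTreg and 4145 of 35745 in ΔTreg against control skin. With the filter, 836 and 3946 of 18375 were called. Both fits used the same mice, so the calls with no filter are no separate evidence. Flg2 ranged from 189 to 249 CPM in control, 151 to 191 CPM in ΔLTreg and 163 to 181 CPM in ΔTreg skin, and its log2 fold change in ΔTreg skin was -0.34 (SE 0.18, adjusted p = 0.196). With no filter, Flg2 had -0.31 (adjusted p = 0.0326) in ΔLTreg and -0.34 (adjusted p = 0.00728) in ΔTreg skin. Lor (chr3:92080271-92083142) had 4048 and 3082 CPM in control, 2259.8, 3661 and 4172 CPM in ΔETreg, 2082, 2466 and 2303 CPM in ΔLTreg and 2360.1, 2406 and 2520.2 CPM in ΔTreg mice. All 6 P13 mice lay below both control mice, while 1 ΔETreg mouse was as low as they were. The Lor log2 fold change was -0.64 (SE 0.21, adjusted p = 0.11) in ΔLTreg and -0.55 (SE 0.21, adjusted p = 0.0832) in ΔTreg skin, and with no filter -0.64 (adjusted p = 1.58e-06) and -0.55 (adjusted p = 1.74e-05). When the fit held only ΔTreg and control mice, Lor in ΔTreg skin passed the threshold, at -0.55 (adjusted p = 0.011). Between ΔLTreg and ΔETreg skin the Lor difference was -0.56 (SE 0.19, adjusted p = 0.106), with no filter it was -0.56 (adjusted p = 2.92e-06), and without ΔETreg replicate 1, Lor was lower in ΔLTreg than in ΔETreg skin, at -0.78 (adjusted p = 0.0109). Involucrin, the early scaffold, had 184 to 255 CPM in all 11 mice, with a log2 fold change of 0.065 (SE 0.11, adjusted p = 0.794) in ΔLTreg and -0.034 (SE 0.11, adjusted p = 0.857) in ΔTreg skin. Of the 4 keratins of the layers in which envelopes are built, 1 was called lower in ΔLTreg and 2 in ΔTreg skin. Of all genes, 2.69% and 9.39% were called lower there. Krt1 was at 421 to 992 CPM in control and ΔETreg skin and 208 to 326 CPM at P13 after DT, with a log2 fold change of -1.50 (SE 0.28, adjusted p = 0.0141) in ΔLTreg and -1.93 (SE 0.28, adjusted p = 0.000664) in ΔTreg skin. Krt10, its partner in the same filaments, had -0.24 (SE 0.20, adjusted p = 0.56) in ΔLTreg and -0.66 (SE 0.20, adjusted p = 0.0357) in ΔTreg skin. Krt2 and Krt77 were not called, at -0.64 (SE 0.32, adjusted p = 0.288) and 0.41 (SE 0.17, adjusted p = 0.212) in ΔLTreg and -0.42 (SE 0.31, adjusted p = 0.411) and 0.40 (SE 0.17, adjusted p = 0.134) in ΔTreg skin. Summed, the 4 keratins had 4658 and 3537 CPM in control, 2683, 4542 and 4588 CPM in ΔETreg, 3374, 3828 and 3738 CPM in ΔLTreg and 2897, 3122 and 3292 CPM in ΔTreg mice, so that ΔLTreg overlapped with control and ΔETreg mice. The part of suprabasal cell number in these results was not tested.

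**Figure D3:**
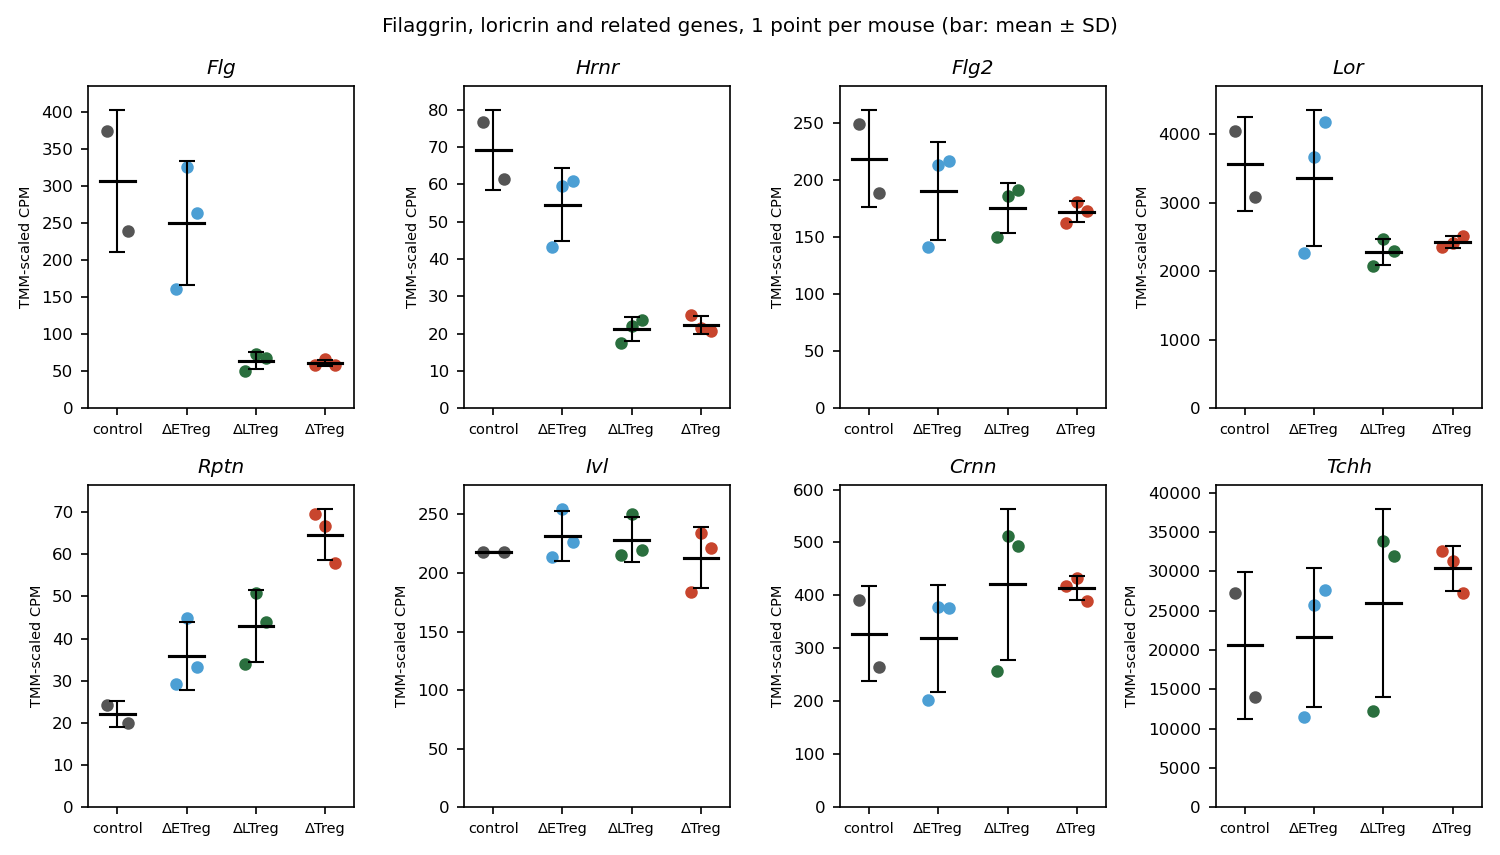
TMM-scaled CPM of Flg, Hrnr, Flg2, Lor, Rptn, Ivl, Crnn and Tchh in each mouse of the 4 groups, with the mean and SD as bars and axes that start at 0. Flg and Hrnr sit at 51.2 to 73.2 and 17.6 to 24.998 CPM in the 6 P13 mice given DT, below all control and ΔETreg mice, whereas Ivl stays between 184 and 255 CPM.

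The LCE1 genes, which code for small, cysteine-rich proteins laid down late under the envelope, were lower as a whole family in ΔLTreg and ΔTreg skin. All 14 Lce1 genes passed the filter, and all 14 were called lower against control in ΔLTreg and in ΔTreg skin, with no overlap between the groups, where 17.2% and 25.8% of all genes were lower without overlap. Their summed level was 539.9 and 456 CPM in control, 344, 503 and 470.3 CPM in ΔETreg, 222, 259 and 234 CPM in ΔLTreg and 251, 284 and 276 CPM in ΔTreg mice. Tested as 1 summed gene, which keeps a read whichever copy it was given to, Lce1 had a log2 fold change of -1.06 (SE 0.14, adjusted p = 0.00289) in ΔLTreg and -0.88 (SE 0.14, adjusted p = 0.00129) in ΔTreg skin against control. The sum was also lower in ΔLTreg than in ΔETreg skin, with a log2 fold change of -0.88 (SE 0.13, adjusted p = 0.00416). The largest part of the sum came from Lce1m (chr3:93017810-93019060), the gene that lies apart from the rest beyond the Lce3 genes. Lce1m had 249.6 and 212 CPM in control, 132, 161 and 152 CPM in ΔLTreg and 129, 149 and 152 CPM in ΔTreg mice, and the smallest change of the family, -0.64 (SE 0.15, adjusted p = 0.0382) in ΔLTreg and -0.69 (SE 0.15, adjusted p = 0.00764) in ΔTreg skin. The calls on Lce1m depended on single mice and on the fit. In ΔLTreg skin it was lost without either control mouse, at -0.52 (adjusted p = 0.203) and -0.75 (adjusted p = 0.0783), and without ΔLTreg replicate 1 or 3, at -0.56 (adjusted p = 0.0793) and -0.66 (adjusted p = 0.0505). It was lost as well when the fit held these groups alone, at -0.64 (adjusted p = 0.0769). In ΔTreg skin it was lost without control replicate 1, at -0.57 (adjusted p = 0.0618).

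Within the family, the genes from Lce1d to Lce1k, which are neighbours on chromosome 3, showed the largest falls in ΔLTreg skin and smaller ones in ΔTreg skin. Lce1d (chr3:92685499-92687210) had 24.1 and 19.998 CPM in control, 14.9, 21.035 and 18.5 CPM in ΔETreg, 4.68, 5.06 and 4.29 CPM in ΔLTreg and 9.69, 11.5 and 9.31 CPM in ΔTreg mice. The 3 ΔTreg mice thus lay between control and ΔLTreg mice without overlap. Against control, Lce1d fell by 4.73-fold in ΔLTreg skin (log2 fold change -2.24, SE 0.15, adjusted p = 0.000146) and by 2.17-fold in ΔTreg skin (log2 fold change -1.12, SE 0.15, adjusted p = 0.000358). The largest fall was that of Lce1j, with 96 and 75 counts in control, 24, 7 and 10 counts in ΔLTreg and 36, 45 and 64 counts in ΔTreg libraries. Its log2 fold change was -2.82 (SE 0.33, adjusted p = 0.00147) in ΔLTreg skin and -0.97 (SE 0.29, adjusted p = 0.0346) in ΔTreg skin. Lce1h and Lce1k stood close to it in ΔLTreg skin, at -2.50 (SE 0.23, adjusted p = 0.000539) and -2.47 (SE 0.24, adjusted p = 0.000705), followed by Lce1g at -2.45 (SE 0.25, adjusted p = 0.000743), Lce1e at -2.22 (SE 0.17, adjusted p = 0.0002), Lce1i at -2.13 (SE 0.17, adjusted p = 0.000318) and Lce1f at -1.98 (SE 0.17, adjusted p = 0.00035).

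In the comparison of the P13 groups, 9 of the 14 Lce1 genes were called higher in ΔTreg than in ΔLTreg skin, where 10.7% of all genes were called higher. They were the 8 neighbours Lce1d, Lce1e, Lce1f, Lce1g, Lce1h, Lce1i, Lce1j and Lce1k, with log2 fold changes from 0.60 to 1.85, and Lce1a1, at 0.51 (SE 0.14, adjusted p = 0.027). Lce1j was highest in this comparison, at 1.85 (SE 0.33, adjusted p = 0.00277), followed by Lce1k at 1.58 (SE 0.23, adjusted p = 0.000859). The other 5, Lce1b, Lce1a2, Lce1c, Lce1l and Lce1m, were not called and had log2 fold changes from -0.050 to 0.32. These 5 genes held most of the reads of the family, and the summed Lce1 counts did not pass the threshold between the P13 groups, at 0.18 (SE 0.13, adjusted p = 0.377). Lce6a, a further LCE gene next to the cluster, had 4.18 to 7.18 CPM in control, 3.49 to 4.04 CPM in ΔLTreg and 3.27 to 3.46 CPM in ΔTreg skin. It was called lower in ΔTreg skin (log2 fold change -0.75, SE 0.19, adjusted p = 0.0177) and did not pass the threshold in ΔLTreg skin (log2 fold change -0.57, SE 0.19, adjusted p = 0.12).

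**Figure D4:**
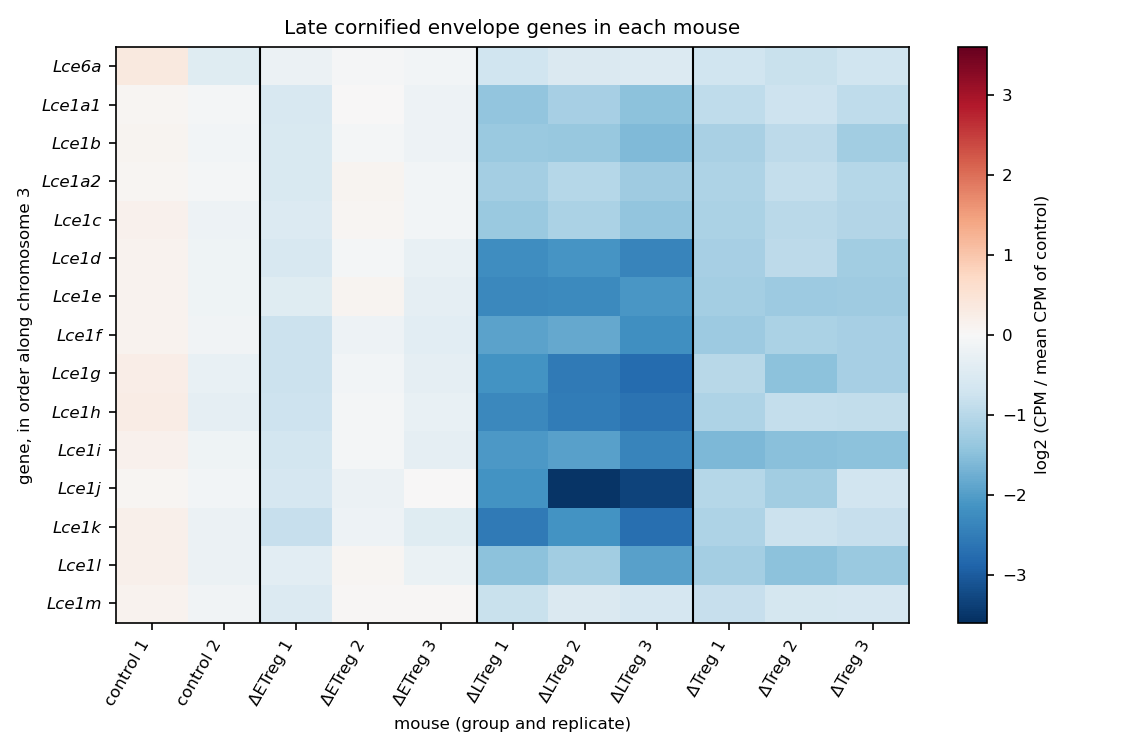
Log2 ratio of each Lce1 gene and Lce6a in each of the 11 mice to the mean CPM of control, with genes in rows in their order along chromosome 3 and mice in columns grouped by regimen. The 3 ΔLTreg columns are darkest blue from Lce1d to Lce1k, down to a log2 ratio of -3.53 for Lce1j, and the ΔTreg columns are paler there.

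Sequences upstream of Flg, Lce1d and Lce1m are shown because these genes stand for the falls of different size. They are RefSeq sequences of GRCm38.p6, read 5′ to 3′ on the gene's strand over the 150 bases that end at the RefSeq transcription start. Matches to the AP-1 motif TGANTCA and to the TATA box TATAAA, on either strand, are in capitals. The Flg stretch runs past the GENCODE start of the gene, chr3:93273523, so its last bases lie within the gene span given above.
Flg, chr3:93273396-93273545, plus strand: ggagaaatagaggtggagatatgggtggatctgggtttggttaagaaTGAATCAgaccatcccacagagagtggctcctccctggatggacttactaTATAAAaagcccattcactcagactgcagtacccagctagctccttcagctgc
Lce1d, chr3:92687211-92687360, minus strand: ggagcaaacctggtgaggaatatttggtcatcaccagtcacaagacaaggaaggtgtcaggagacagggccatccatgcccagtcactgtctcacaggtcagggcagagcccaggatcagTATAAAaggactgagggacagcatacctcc
Lce1m, chr3:93019062-93019211, minus strand: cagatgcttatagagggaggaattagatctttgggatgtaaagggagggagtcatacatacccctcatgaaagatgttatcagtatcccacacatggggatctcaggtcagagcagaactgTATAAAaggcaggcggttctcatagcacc
AP-1 factors are known activators of envelope genes. In windows from 250 bases before to 50 bases after the start, 7.81% of all 32851 promoters in the table held an AP-1 match and 13.6% a TATA box match. Of the 43 cornified envelope genes with such a window, 16 held an AP-1 match, among them Lor, Ivl, Flg, Flg2, Rptn, Crnn, Tchhl1, Sprr1a and Sprr1b, and 20 a TATA box match. None of the 13 Lce1 windows held the AP-1 letters, and 2 of them, of Lce1d and Lce1m, held the TATA letters. Flg thus held both sets of letters, Lce1d and Lce1m the TATA letters without those of AP-1, and the other 11 Lce1 windows neither.

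The LCE3 genes, a branch known from injured and psoriatic epidermis, fell into genes with and without counts to test: Lce3c and Lce3d passed the filter level in all 11 libraries, Lce3a in 2, and Lce3b, Lce3e and Lce3f in none. Lce3c, the highest of them in the P13 groups, stood below Lce3d in control, with 3.91 against 4.87 CPM per kb, and in ΔETreg skin, with 4.04 against 4.92 CPM per kb. Lce3c had 1.09 and 3.35 CPM in control, 1.74, 1.87 and 3.26 CPM in ΔETreg, 6.32, 7.53 and 5.10 CPM in ΔLTreg and 1.67, 4.66 and 3.90 CPM in ΔTreg mice. Every ΔLTreg mouse lay above the mice of the other groups. The log2 fold change in ΔLTreg skin was 1.53 (SE 0.48, adjusted p = 0.103), and it passed the threshold in DESeq2's Wald test, at 1.51 (adjusted p = 0.0151), and with no filter, at 1.53 (adjusted p = 3.22e-06). The ΔLTreg values were also above those of ΔETreg mice (log2 fold change 1.48, SE 0.41, adjusted p = 0.0598), a difference that DESeq2 called, at 1.46 (adjusted p = 0.00526), as did edgeR with no filter, at 1.47 (adjusted p = 1.58e-07), and in a fit of these groups alone, at 1.47 (adjusted p = 0.0327). With no filter Lce3c was also lower in ΔTreg than in ΔLTreg skin, at -0.85 (adjusted p = 0.00148). Lce3d and Lce3a were not called, with 0.57 (SE 0.42, adjusted p = 0.507) and -0.018 (SE 0.64, adjusted p = 0.993) in ΔLTreg skin. Of the 150-base stretches of the Lce3c transcript, 15.1% also occur in another gene, so that some of its reads may have been left uncounted.

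The SPRR2 genes followed different courses. In ΔTreg skin, several genes that were close to silent in the other groups were expressed in all 3 mice. Sprr2a3 (chr3:92285417-92291405) had 21 and 12 counts in control, 12, 15 and 11 counts in ΔETreg, 33, 28 and 39 counts in ΔLTreg and 1277, 1422 and 947 counts in ΔTreg libraries. On the CPM scale the ΔTreg mice had 54.8, 42.2 and 29.3 CPM, against 0.418 to 1.22 CPM in the 8 other mice. Sprr2a3 was 68.001-fold higher in ΔTreg than in control skin (log2 fold change 6.09, SE 0.31, adjusted p = 1.42e-06) and 38.1-fold higher than in ΔLTreg skin of the same age (log2 fold change 5.25, SE 0.24, adjusted p = 6.33e-07). The 3 ΔLTreg libraries were above both control libraries as well, without passing the threshold (log2 fold change 0.84, SE 0.39, adjusted p = 0.26). Its copies Sprr2a1 and Sprr2a2 had at most 5 counts in any library outside the ΔTreg group and 162, 224 and 131 and 265, 351 and 172 counts in ΔTreg libraries. Against control, which had 2 and 5 counts in all, the ratio was 155 (exact 95% counting interval 42.8 to 1285) for Sprr2a1 and 94.6 (counting interval 40.4 to 292) for Sprr2a2. Against ΔLTreg skin the ratios were 105 (counting interval 44.8 to 326) and 66.9 (counting interval 38.1 to 130.0). As the filter kept both through the ΔTreg libraries, these ratios, like those of Sprr2d, Sprr2e, Sprr2f and Sprr2g, are descriptions, given with no test. Their separate values are uncertain, because 89.6% of the 150-base stretches of Sprr2a1 and 89.0% of those of Sprr2a2 occur in another gene and their annotated spans overlap. The summed level of the 3 copies was 0.946 and 0.518 CPM in control, 1.10, 1.37 and 1.41 CPM in ΔLTreg and 73.1, 59.3 and 38.6 CPM in ΔTreg mice.

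Further along, Sprr2d, Sprr2e and Sprr2g had few counts outside the ΔTreg group. Sprr2d had 1 count in each control library, none in the 6 ΔETreg and ΔLTreg libraries, and 14, 58 and 28 counts in ΔTreg libraries. At a floor of 3 counts per library, Sprr2d was at least 10.6-fold higher in ΔTreg than in ΔLTreg skin. Against the 2 counts of control, the ratio was 30.027, with an exact 95% counting interval of 8.10 to 251. Sprr2e had 14, 36 and 13 counts in ΔTreg libraries and at most 2 elsewhere. Its ratio to control was 18.9 (counting interval 5.02 to 159.6), and to ΔLTreg skin 21.4 (counting interval 6.99 to 106). Sprr2g had 20, 37 and 19 counts in ΔTreg libraries and at most 4 elsewhere, a ratio of 22.8 to control (counting interval 6.10 to 192) and of 8.60 to ΔLTreg skin (counting interval 4.30 to 19.5). These intervals cover counting error only. Sprr2f had 0 and 1 counts in control, 9, 1 and 5 counts in ΔLTreg and 6, 13 and 16 counts in ΔTreg libraries. Its ratio was 21.019 to control (counting interval 3.53 to 854) and 2.38 to ΔLTreg skin (counting interval 1.26 to 4.68). Sprr2i, not tested, had 6, 6 and 12 counts in ΔTreg libraries and at most 2 elsewhere, a ratio of 8.15 to ΔLTreg skin (counting interval 2.47 to 42.3). Sprr2b and Sprr2k, not tested either, did not exceed 6 counts in any library.

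Sprr2h (chr3:92385685-92387324), the most abundant member of the family in control skin, followed another course. It had 23.3 and 18.7 CPM in control, 15.3, 20.9 and 21.2 CPM in ΔETreg, 43.8, 43.015 and 43.5 CPM in ΔLTreg and 33.2, 42.8 and 49.9 CPM in ΔTreg mice. The 6 P13 mice were all above the 5 others. Sprr2h rose 2.07-fold in ΔLTreg (log2 fold change 1.05, SE 0.18, adjusted p = 0.00886) and 2.00-fold in ΔTreg skin (log2 fold change 1.00, SE 0.18, adjusted p = 0.00218), was higher in ΔLTreg than in ΔETreg skin (log2 fold change 1.18, SE 0.15, adjusted p = 0.00207) and had a difference of -0.048 (SE 0.15, adjusted p = 0.867) between the P13 groups. Without control replicate 2 the call in ΔLTreg skin was lost, at 0.90 (adjusted p = 0.0792). The summed level of the 13 Sprr2 genes was 24.5 and 19.5 CPM in control, 15.8, 21.9 and 21.980 CPM in ΔETreg, 45.7, 44.7 and 45.4 CPM in ΔLTreg and 109, 107 and 91.4 CPM in ΔTreg mice. Nearly all of it was Sprr2h in ΔLTreg skin, whereas in ΔTreg skin Sprr2h and the Sprr2a copies made up most of it together. Tested as a sum, the family rose in ΔLTreg skin, with a log2 fold change of 1.04 (SE 0.14, adjusted p = 0.00308), and in ΔTreg skin, with 2.22 (SE 0.15, adjusted p = 4.24e-06), and it was higher in ΔTreg than in ΔLTreg skin, with 1.18 (SE 0.12, adjusted p = 7.53e-05).

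**Figure D5:**
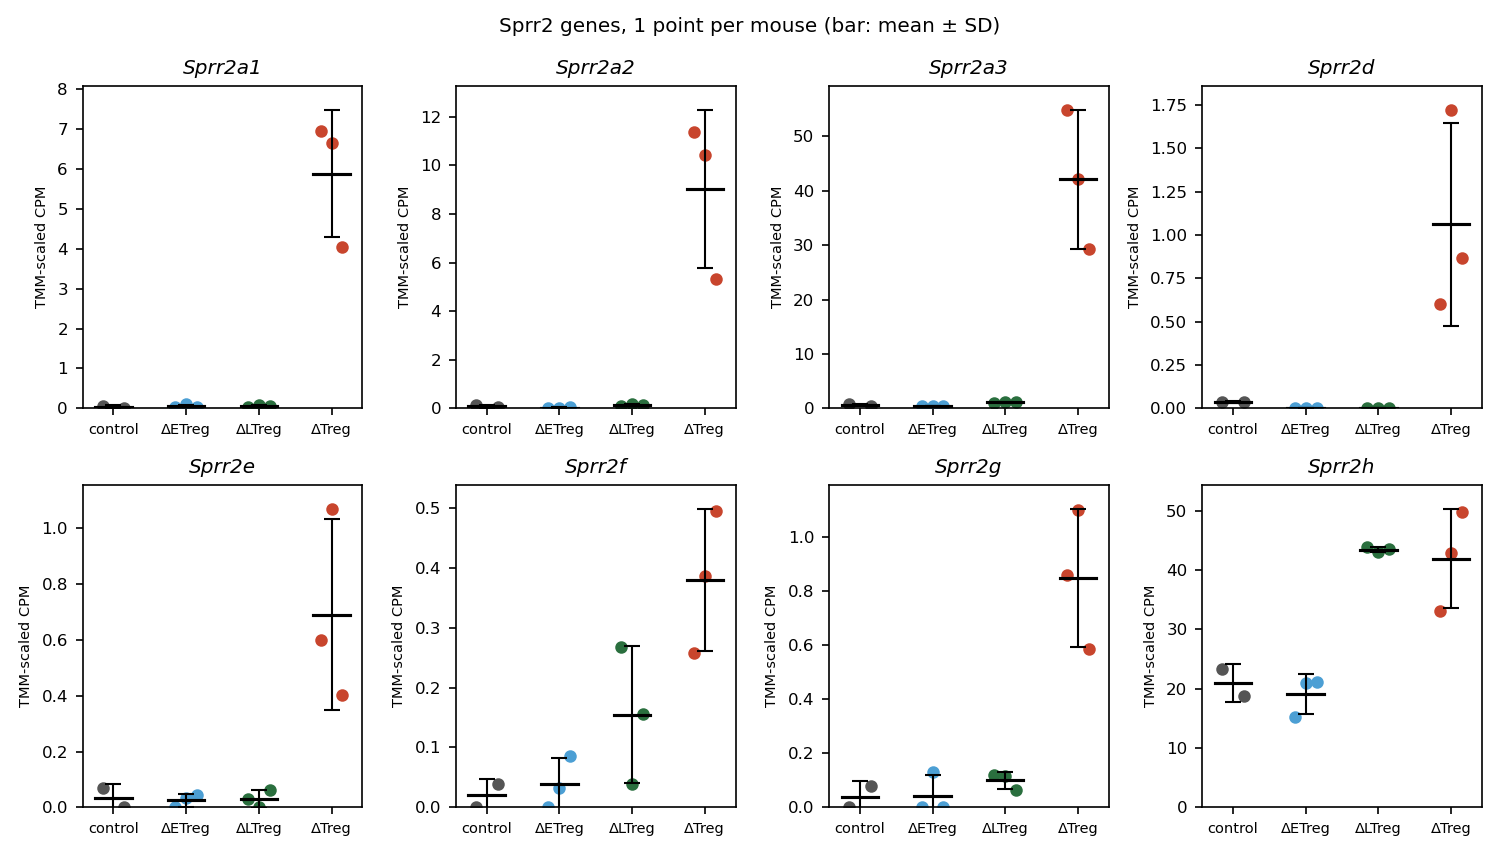
TMM-scaled CPM of 8 Sprr2 genes in each mouse of the 4 groups, with the mean and SD as bars cut at 0 on axes that start at 0. Sprr2a3 reaches 29.3 to 54.8 CPM in ΔTreg mice and stays at or below 1.22 CPM elsewhere, whereas Sprr2h is at 33.2 to 49.9 CPM in the P13 groups given DT and at 15.3 to 23.3 CPM in control and ΔETreg mice.

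The stretches upstream of Sprr2d and Sprr2e, which had 13 or more counts in every ΔTreg library and at most 2 in any other, and of Sprr2h, which rose in both P13 groups, are shown side by side over the 220 bases that end at the start, from RefSeq on GRCm38.p6, all on the plus strand, with AP-1 (TGANTCA) and TATA box (TATAAA) matches in capitals.
Sprr2d, chr3:92338920-92339139: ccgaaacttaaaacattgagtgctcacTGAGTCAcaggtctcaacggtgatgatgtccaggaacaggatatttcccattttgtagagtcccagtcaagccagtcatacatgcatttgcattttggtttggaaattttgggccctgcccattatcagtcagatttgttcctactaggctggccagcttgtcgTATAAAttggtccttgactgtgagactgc
Sprr2e, chr3:92351923-92352142: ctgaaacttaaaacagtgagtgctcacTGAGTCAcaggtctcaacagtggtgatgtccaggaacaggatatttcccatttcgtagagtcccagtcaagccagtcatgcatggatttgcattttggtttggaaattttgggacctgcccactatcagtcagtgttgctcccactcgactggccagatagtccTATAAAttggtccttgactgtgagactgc
Sprr2h, chr3:92385465-92385684: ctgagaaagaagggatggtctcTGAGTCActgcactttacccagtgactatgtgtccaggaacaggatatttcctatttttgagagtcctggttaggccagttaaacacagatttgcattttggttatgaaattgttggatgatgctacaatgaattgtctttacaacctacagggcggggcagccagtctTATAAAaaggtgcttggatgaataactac
Each of the 3 held 1 AP-1 match, at -193 in Sprr2d and Sprr2e and at -198 in Sprr2h, and a TATA box match at -29. Over 250 upstream bases, Sprr2d and Sprr2e were 88.0% the same, and Sprr2d and Sprr2h 47.4% at the best ungapped shift. Of the 10 Sprr2 genes with a window, 7 held both matches: Sprr2b, Sprr2d, Sprr2e, Sprr2f, Sprr2h, Sprr2i and Sprr2k. The windows of Sprr2a1, Sprr2a2 and Sprr2a3, which are the same as each other over 222 bases, held neither set of letters. At the best ungapped shift, their upstream bases were only 31.8% to 35.4% the same as those of the other Sprr2 genes. Whether the annotated starts of the Sprr2a genes correspond to those of the others was not tested. The missing letters therefore do not show that these 3 genes lack such sites. 

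Immune cell transcripts were higher in ΔTreg skin, as Sprr2a3 was. In ΔLTreg skin, where Sprr2h rose too, the summed T cell and macrophage genes overlapped with control. The summed neutrophil genes lay above control there, by less than in ΔTreg skin. Between the P13 groups, 10.7% of all genes were called higher and 6.11% lower. The summed level of 6 T cell genes was 10.2 to 15.6 CPM in control, ΔETreg and ΔLTreg and 44.7 to 54.2 CPM in ΔTreg mice, and all 6 were called higher in ΔTreg than in ΔLTreg skin. Of the defining markers, Cd8a had at most 3 counts in any library outside the ΔTreg group and 7.01 to 10.2 CPM within it. Cd8a thus passed the filter only through the ΔTreg libraries and had to be higher there, so its call, counted among the 6, is no result. For 8 macrophage genes the sum was 86.6 to 225 CPM in the other groups and 549 to 735 CPM in ΔTreg mice, and all 8 were called higher in ΔTreg than in ΔLTreg skin. For 7 neutrophil genes, of which 5 were tested and 4 called higher, the sum holds S100a8 and S100a9 as well. It was 13.2 and 14.3 CPM in control, 9.01 to 11.7 CPM in ΔETreg, 17.1 to 18.4 CPM in ΔLTreg and 33.3 to 41.035 CPM in ΔTreg mice. Low neutrophil genes may have passed the filter only through the ΔTreg libraries, which was not checked, so the count of 4 is no result. Of 9 tested cytokine genes, 6 were called higher in ΔTreg than in ΔLTreg skin and none lower, among them Il13 (0.0939 to 0.314 CPM in the other groups and 4.98 to 6.52 CPM in ΔTreg mice), Il6, Osm and Ifng. Il13 lay under the filter level of 0.344 CPM in all other groups. It passed only through the ΔTreg libraries and had to be higher there. The 14 cytokine genes summed to only 3.39 to 5.33 CPM in the other groups. Others may have passed in the same way, so the count of 6 is no result. The part of immune cells and cytokines in the Sprr2a3 result was not tested.

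The remaining SPRR genes changed less. Sprr1a, one of the most abundant envelope genes, had 1116 to 1422 CPM in control and ΔETreg, 1558 to 1599.6 CPM in ΔLTreg and 1669.7 to 1725 CPM in ΔTreg mice. It rose in ΔTreg skin (log2 fold change 0.42, SE 0.11, adjusted p = 0.0194) and had 0.31 (SE 0.11, adjusted p = 0.143) in ΔLTreg skin, which passed the threshold with no filter, at 0.31 (adjusted p = 0.0134), and in DESeq2, at 0.30 (adjusted p = 0.0498). The call in ΔTreg skin was lost without control replicate 2, at 0.29 (adjusted p = 0.189), and without ΔTreg replicate 2, at 0.41 (adjusted p = 0.0554). Sprr1b, with 30.6 to 35.5 CPM in control and 38.5 to 55.028 CPM in ΔTreg skin, also rose there (log2 fold change 0.57, SE 0.16, adjusted p = 0.0272). Sprr4, a short SPRR gene, was called in both P13 groups. It had 182 and 169.7 CPM in control, 163, 183 and 188 CPM in ΔETreg, 273, 272 and 257 CPM in ΔLTreg and 231, 236 and 243 CPM in ΔTreg mice. The ΔLTreg mice were highest, the ΔTreg mice came next, and neither group overlapped with any other. Its log2 fold change was 0.60 (SE 0.07, adjusted p = 0.00141) in ΔLTreg and 0.43 (SE 0.07, adjusted p = 0.00137) in ΔTreg skin, and the difference between the P13 groups was -0.18 (SE 0.06, adjusted p = 0.0765). Sprr3, an SPRR gene of internal stratified epithelia, had 1 count in each of 2 libraries and none in the others.

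Repetin (Rptn, chr3:93393699-93399442), an S100-fused protein bound to the envelope, was the only S100-fused gene that rose. It had 24.3 and 19.9 CPM in control, 29.3, 44.9 and 33.3 CPM in ΔETreg, 33.9, 50.9 and 43.8 CPM in ΔLTreg and 69.5, 66.5 and 57.8 CPM in ΔTreg mice. Every DT-treated mouse lay above both control mice, and the ΔTreg mice lay above all others. On the log2 scale, Rptn stood at 0.70 (SE 0.20, adjusted p = 1.00) in ΔETreg against control, 0.95 (SE 0.20, adjusted p = 0.0247) in ΔLTreg against control and 1.54 (SE 0.20, adjusted p = 0.000354) in ΔTreg against control skin, and at 0.59 (SE 0.17, adjusted p = 0.0342) between the P13 groups. The call in ΔLTreg skin was lost without control replicate 1, at 1.11 (adjusted p = 0.0795), without control replicate 2, at 0.81 (adjusted p = 0.151), and in a fit of these groups alone, at 0.95 (adjusted p = 0.0943). That between the P13 groups was lost without ΔLTreg replicate 1 or 3, at 0.44 (adjusted p = 0.0957) and 0.61 (adjusted p = 0.051), and without ΔTreg replicate 1 or 2, at 0.53 (adjusted p = 0.119) and 0.57 (adjusted p = 0.0959). In ΔTreg against control skin, the Rptn log2 fold change ranged from 1.40 to 1.70 over mice left out in turn.

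Cornulin and the trichohyalin genes varied between mice of the same group. Tchh (chr3:93442330-93449077), the first or second most abundant gene of every library, had 27182 and 14018 CPM in control, 11445, 25705 and 27621 CPM in ΔETreg, 12258, 33803 and 31917 CPM in ΔLTreg and 32614, 31355 and 27177 CPM in ΔTreg mice. Control replicate 2, ΔETreg replicate 1 and ΔLTreg replicate 1 were low, and the groups overlapped in all comparisons. The same 3 mice were lowest in their groups for Tchhl1, with 555 and 339 CPM in control, 243, 586 and 560.2 CPM in ΔETreg and 356, 649.7 and 541 CPM in ΔLTreg mice, and for Crnn, with 391 and 265 CPM in control, 202, 378 and 377 CPM in ΔETreg and 257, 512 and 494 CPM in ΔLTreg mice. None of the 3 genes was called in any comparison among the genes that passed the filter, and in ΔTreg skin their log2 fold changes were 0.56 (SE 0.46, adjusted p = 0.427), 0.34 (SE 0.35, adjusted p = 0.544) and 0.33 (SE 0.31, adjusted p = 0.494). With no filter, Tchh was called higher in ΔTreg than in control skin, at 0.56 (adjusted p = 0.0181), and Crnn higher in ΔLTreg than in ΔETreg skin, at 0.40 (adjusted p = 0.0224). In sum, 6 inner root sheath keratins were also lowest of their group in these mice, with 24148 and 19557 CPM in control, 18637, 22474 and 24293 CPM in ΔETreg and 20427, 28419.9 and 28457 CPM in ΔLTreg mice. The sum of 6 hair shaft keratins was 1896, 6089.7 and 7593 CPM in ΔLTreg mice and 5004 to 7485 CPM in the rest, so that ΔLTreg replicate 1 stood apart. Without it, 19 cornified envelope genes were called in ΔLTreg against control skin (4 higher and 15 lower), where 903 of 18223 genes were (342 higher and 561 lower). In ΔTreg against ΔLTreg skin 13 were called, all higher, where 2942 of 18223 genes were (1882 higher and 1060 lower).

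In ΔETreg skin, a day after the second DT dose, no cornified envelope gene passed the threshold in edgeR, and 2 of the 38 had an unadjusted p under 0.05, where 4.75% of all genes did. DESeq2's Wald test called none of them either. The nearest were Rptn, given above, and Lce1f, with 17.1 and 14.2 CPM in control and 9.19, 13.7 and 12.1 CPM in ΔETreg mice (log2 fold change -0.42, SE 0.16, adjusted p = 1.00). Of the 38, 12 log2 fold changes were above 0 and 26 below. ΔETreg replicate 1 had the lowest Lor, Flg, Hrnr and summed Lce1 level of its group. With no filter on low counts, 1 gene, Rptn, was called, where 54 of all 35745 genes in that fit were. The Lce1 sum stood at -0.18 (SE 0.14, adjusted p = 1.00) and the Sprr2 sum at -0.15 (SE 0.14, adjusted p = 1.00) in ΔETreg against control skin.

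Other genes of cornification were taken from lists written with earlier results of these data known, and their counts in ΔTreg against control skin stand against 12.1% of all genes called higher and 9.39% lower. Of 20 crosslinking and processing enzymes, 6 were called higher and 1 lower in ΔTreg against control skin, with a median log2 fold change of 0.18. The desquamation proteases Klk6 and Klk7 had 1.17 (SE 0.16, adjusted p = 0.000541) and 0.49 (SE 0.08, adjusted p = 0.0018), and their inhibitor Spink5 0.52 (SE 0.08, adjusted p = 0.00106). Casp14, a protease that takes part in filaggrin breakdown, was the gene that fell, at -0.52 (SE 0.14, adjusted p = 0.0197) in ΔTreg and -0.67 (SE 0.14, adjusted p = 0.0223) in ΔLTreg skin. The transglutaminases that crosslink the envelope did not pass the threshold, with 0.27 (SE 0.12, adjusted p = 0.148) for Tgm1 and -0.18 (SE 0.20, adjusted p = 0.565) for Tgm3. Of 19 tested genes for other envelope and corneodesmosome proteins, none was called higher and 2 lower, Krtdap at -0.27 (SE 0.06, adjusted p = 0.00982) and Them5 at -1.13 (SE 0.15, adjusted p = 0.000373), while Evpl and Cnfn, for the scaffold protein envoplakin and for cornifelin, were not called, at 0.33 (SE 0.17, adjusted p = 0.201) and 0.31 (SE 0.13, adjusted p = 0.13). Of 20 barrier lipid genes, 3 were called higher and 2 lower, shares near those of all genes. Degs2, an enzyme of ceramide synthesis, had 1.40 (SE 0.12, adjusted p = 2.74e-05), Ugcg, the glucosylceramide synthase, 0.44 (SE 0.09, adjusted p = 0.00641), and Elovl7, a fatty acid elongase, -0.28 (SE 0.07, adjusted p = 0.0169).

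Among 28 regulators of terminal differentiation, 5 were called higher and 1 lower in ΔTreg against control skin, where 21.5% of all genes were called, so the count was at the level of all genes. The AP-1 subunits Junb and Jun had 0.47 (SE 0.07, adjusted p = 0.00105) and 0.38 (SE 0.10, adjusted p = 0.0231), Cebpb had 0.29 (SE 0.07, adjusted p = 0.0086), and Pou2f3 was lower at -0.41 (SE 0.09, adjusted p = 0.00999). Klf4 and Grhl3, which drive barrier formation, had 0.12 (SE 0.09, adjusted p = 0.394) and 0.22 (SE 0.11, adjusted p = 0.168), and Klf4 was higher in ΔTreg than in ΔLTreg skin, at 0.31 (SE 0.08, adjusted p = 0.026). Of 12 tested S100 genes of the same complex, 3 were called higher and none lower, S100a9 at 2.38 (SE 0.16, adjusted p = 4.69e-06), S100a8 at 0.69 (SE 0.16, adjusted p = 0.0125) and S100a4 at 0.88 (SE 0.19, adjusted p = 0.00721), while S100a10 was not called, at -0.24 (SE 0.11, adjusted p = 0.158). S100a8 and S100a9 are made by neutrophils too. Of 14 tested stress and alarm genes of the epidermis, 7 were called higher and 1 lower against control, and 12 were called higher and none lower in ΔTreg against ΔLTreg skin, where 10.7% and 6.11% of all genes were, with a median log2 fold change of 1.73. Low genes of this list may have passed the filter only through the ΔTreg libraries, which was not checked, so these counts and this median are no result. Krt6b, a keratin of stressed epidermis, had 2.51 to 4.65 CPM in the other groups and 44.5 to 105 CPM in ΔTreg mice, with 4.12 (SE 0.30, adjusted p = 8.18e-06). Krt6a had 0.49 (SE 0.09, adjusted p = 0.00281), Slpi 0.96 (SE 0.23, adjusted p = 0.016) and Lcn2 2.05 (SE 0.30, adjusted p = 0.000814) in the same comparison. The epidermal serpin Serpinb3a, named after its values were seen, was lower in ΔLTreg than in control skin, at -4.92 (SE 0.45, adjusted p = 0.00053), and higher in ΔTreg than in ΔLTreg skin, at 3.77 (SE 0.46, adjusted p = 0.000246), the same signs as Lce1d to Lce1k. Of 10 NRF2 target genes, 1 was called higher, Hmox1 at 0.54 (SE 0.17, adjusted p = 0.0454), and 3 lower, Gstm1 at -0.51 (SE 0.10, adjusted p = 0.00447), Gclc at -0.32 (SE 0.08, adjusted p = 0.0157) and Gclm at -0.22 (SE 0.07, adjusted p = 0.0353).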

How the data were processed

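RNA of whole skin was sequenced as 150 bp paired-end reads. According to the submitters' processing notes and the study's methods, the authors trimmed the reads with Trimmomatic 0.36, aligned them to GRCm38 with STAR 2.5.2b and counted uniquely mapped reads on exons with featureCounts of Subread 1.5.2. The annotation release and whether counting used strand are not given in the sources used here. The deposited counts are raw whole numbers per gene. Counting of unique reads leaves out reads that match near-identical copies equally well, as parts of Sprr2a1, Sprr2a2 and some Lce3 genes do. Reads that match several repeats within a gene, as in Flg and Hrnr, may be left out too.

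The test was edgeR 4.0.16 under R 4.3.3 (filterByExpr by group, TMM, 1 quasi-likelihood fit of all 11 libraries with a mean for each of 4 groups, Benjamini-Hochberg adjustment over 18375 genes, threshold 0.05). Each SE was taken as |log2 fold change| over √F. Family sums replaced the rows of Lce1, Lce3, Sprr1 or Sprr2 by their summed counts in the whole table. The scripts were tested on simulated data. Positions come from GENCODE M21 on GRCm38, promoters from RefSeq on GRCm38.p6. Library totals were 23377571 to 34159435. A gene at or under 3 counts in each library of a group was taken as at the floor, and folds against an undetected group are lower bounds. Counting intervals are exact, at 95%, and, like floors, cover counting error only, as reads carried no molecular identifiers.

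Groups came from the treatment labels. The authors' test was DESeq2's Wald test, used here (DESeq2 1.42.0) as an alternative beside DESeq2 size factors, library size alone, no filter, at least 10 counts in every library, fits of the 2 groups compared, and each mouse left out in turn. The members and all 20 gene lists were chosen with earlier results of these data known. Named in full were Lor, Ivl and the S100-fused genes, up to 8 called Lce or Sprr genes with the largest change and no overlap in each comparison, the highest member of each family, from every list up to 4 genes lowest in p for ΔTreg against control, and Tgm1, Tgm3, Krt1, Krt10, Klf4 and Grhl3; Casp14, Serpinb3a and all other genes given with values were picked once their values were known. A gene that the rule names is not reported here.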

Additional observations from a re-analysis of the deposited data

How the results depend on the processing

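No paired analysis was possible because the labels give no replicate numbers, and numbers given in accession order pair nothing. The number of cornified envelope genes called stayed within 1.5 times its value under each alternative except in ΔETreg against control skin with no filter on low counts (1 against 0) and in ΔTreg against ΔLTreg skin with at least 10 counts in every library (10 against 16), where the low Sprr2 genes and Lce1j are no longer tested by construction. Over all genes, these fits called 54 of 35745 and 2700 of 15633. Over mice left out in turn, the number of cornified envelope genes called ranged from 13 to 16 in ΔTreg against ΔLTreg skin, where 1987 to 2942 of all genes were called. In ΔLTreg against ΔETreg skin it ranged from 17 to 19, where 353 to 1172 of all genes were called. Against control no range of such counts is given, as leaving out a control mouse leaves 1.

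Summed Lce1 and Sprr2 counts kept their calls in ΔLTreg and ΔTreg against control and in ΔLTreg against ΔETreg skin under every alternative run. Lce3 passed the threshold in ΔLTreg against control skin with no filter, at 1.07 (SE 0.20, adjusted p = 4.21e-05), and in DESeq2, at 1.06 (SE 0.35, adjusted p = 0.0385); in ΔLTreg against ΔETreg skin the values were 1.04 (SE 0.17, adjusted p = 3.11e-06) and 1.04 (SE 0.31, adjusted p = 0.0154), and in ΔTreg against ΔLTreg skin with no filter -0.79 (SE 0.17, adjusted p = 0.000248). Sprr1 passed in ΔLTreg against control skin with no filter, at 0.32 (SE 0.09, adjusted p = 0.01), and in DESeq2, at 0.31 (SE 0.10, adjusted p = 0.0399), and in ΔLTreg against ΔETreg skin at 0.27 (SE 0.08, adjusted p = 0.013) and 0.27 (SE 0.09, adjusted p = 0.0433). The cause was not tested. Over mice left out in turn, Sprr1 in ΔTreg against control skin ranged from 0.30 to 0.55 and lost its call without control replicate 2 or ΔTreg replicate 2.

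Signs turned only where no call was made and a mouse was left out. In ΔETreg against control skin, values ranged from -0.33 to 0.46 for summed Lce3, from -0.078 to 0.17 for summed Sprr1, from -0.30 to 0.025 for summed Sprr2, from -0.27 to 0.14 for Lor, from -0.58 to 0.062 for Flg, from -0.39 to 0.012 for Flg2, from -0.30 to 0.27 for Crnn, from -0.33 to 0.62 for Tchh, from -0.26 to 0.45 for Tchhl1, from -0.23 to 0.041 for Lce1m, from -0.57 to 1.05 for Lce3c, from -0.087 to 0.17 for Sprr1a, from -0.28 to 0.029 for Sprr2h. In ΔTreg against control skin, values ranged from -0.079 to 0.71 for summed Lce3, from -0.10 to 0.058 for Ivl. In ΔLTreg against control skin, values ranged from -0.065 to 0.89 for Tchh, from -0.11 to 0.60 for Tchhl1. In ΔTreg against ΔLTreg skin, values ranged from -0.20 to 0.041 for Flg, from -0.13 to 0.039 for Flg2, from -0.048 to 0.17 for Hrnr, from -0.29 to 0.13 for Crnn, from -0.12 to 0.45 for Tchh, from -0.082 to 0.33 for Tchhl1, from -0.13 to 0.014 for Lce1m, from -0.19 to 0.088 for Sprr2h. In ΔLTreg against ΔETreg skin, values ranged from -0.092 to 0.054 for Ivl, from -0.040 to 0.61 for Tchh, from -0.16 to 0.36 for Tchhl1. With 2 control mice and a few counts per library, the low Sprr2 and Lce3 genes had the widest standard errors.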

Other observations

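Markers of other cell types that were not set beside an envelope gene above moved as follows. In ΔTreg against control skin, 12.1% of all genes were called higher and 9.39% lower. Of 6 sebocyte genes, 3 were called lower in ΔTreg against control skin, Scd3 at -1.12 (SE 0.17, adjusted p = 0.00105), Awat2 at -0.98 (SE 0.15, adjusted p = 0.00109) and Mc5r at -0.38 (SE 0.10, adjusted p = 0.019), with none called higher. The 5 adipocyte genes gave no call against control, and Adipoq was lower in ΔTreg than in ΔLTreg skin, at -2.19 (SE 0.66, adjusted p = 0.0432). Of 5 basal keratinocyte genes 1, Krt14, was called, higher in ΔTreg than in control skin at 0.40 (SE 0.10, adjusted p = 0.018). The summed level of Krt4 and Krt13, keratins of internal epithelia, was 0.510 to 1.24 CPM over all 11 mice. The summed muscle genes were highest in 2 of the 3 ΔLTreg mice, where Myh4 had 5.53 (SE 0.76, adjusted p = 0.00278) against control.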
